A study of Mus musculus with 12 samples.

Results

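The 6 genes described here are the cadherins Cdh1, Cdh2, Cdh6 and Cdh17 and the protocadherins Pcdh1 and Pcdh7, found by symbol in a count table of 53599 genes. They were measured by RNA sequencing in 12 libraries of sorted mouse liver cells, 3 in each of 4 groups. The members were chosen by name with earlier results of these libraries in view, and so were selected on the same levels and contrasts that are described here. The levels of the members are therefore given as a description. Their standard errors, intervals and calls come from the fit of all genes, and nothing is supported with them. Of the 6, 5 passed the filter on low counts and 1, Pcdh7, did not.

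Mice of WT genotype, per the labels, were given AAV8-TBG-Cre, a virus in which a promoter active in hepatocytes drives Cre recombinase, so that hepatocytes and their progeny become EGFP-positive. From 1 week later all mice ate 0.1% DDC, a diet that injures bile ducts, for 8 weeks. The early group was sorted as EGFP+ Cd24- Epcam- cells, the intermediate group as EGFP+ Cd24+ Epcam- cells and the full group as EGFP+ Cd24+ Epcam+ cells. The fourth group, BEC, held EGFP- Epcam+ cells, the resident biliary epithelium. All 4 groups carry the virus and the diet, so no group is without them. The EGFP allele, the age of the mice and whether libraries came from separate mice are not given in the sources used here. P-values then measure the spread between these libraries, which may be technical.

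Cadherins are transmembrane proteins that bind one another across cell contacts in a calcium-dependent way. Classical cadherins hold catenins on their cytoplasmic tail, which link adherens junctions to actin. Type I cadherins include E-cadherin (Cdh1) and N-cadherin (Cdh2), both of which hepatocytes carry. Cdh6, or K-cadherin, is a type II cadherin best known from developing kidney tubules. Cdh17, or LI-cadherin, is an intestinal cadherin with a short tail that does not bind catenins. Protocadherins such as Pcdh1 and Pcdh7 share the extracellular repeats and lack the classical tail.

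Total counts ran from 15112893 to 19731887 per library. Levels are given as CPM, read counts scaled to a common library size after correction by TMM factors. The factors, which offset differences in composition, ran from 0.652 to 0.672 in early libraries and from 1.03 to 1.22 in the others. Directions below hold on that scale, and with total counts only the all-gene median of the log2 fold changes between intermediate and early moved from 0.06 to 0.72, and the share of calls that were higher from 52.8% to 85.6%. Summed levels of 8 hepatocyte markers lay between 95358 and 99902 CPM in early libraries, 15023 and 19605 in intermediate, 3247 and 4275 in full, and 1967 and 2606 in BEC. The 8 biliary markers summed to between 966 and 1927 CPM in early, 9233 and 12138 in intermediate, 11587 and 14831 in full, and 13900 and 17236 in BEC. The labels thus match their markers, although Spp1 made up most of the biliary sum in every group, and Krt19 and Cftr were at or under 3 counts in each early library. The other 7 biliary markers together held 98.7 to 131 CPM in early, 596 to 689 in intermediate, 1374 to 1669 in full and 2770 to 3083 in BEC. Epcam is among these 7, and since the groups were sorted by it, part of the match was set by the sort.

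Cdh6 went from a handful of reads in early cells to one of the well-detected genes of the full and BEC groups. Its counts in the early libraries were 1, 4 and 1. Its level was 133, 92.3 and 65.3 CPM in the 3 intermediate libraries. In full it was 442, 486 and 490 CPM, and in BEC 427, 444 and 417 CPM. The 4 groups form 3 tiers: early near 0, intermediate between, and full with BEC together, where the ranges overlap. Pooled over libraries, Cdh6 was 575-fold higher in intermediate than in early, with a 95% exact interval for counting error alone of 264 to 1567, since the early level rests on 6 counts. Without TMM factors its means were 0.115 CPM in early and 102 CPM in intermediate. From intermediate to full the log2 fold change was 2.28 (SE 0.20). Between BEC and full it was -0.14 (SE 0.19), with an 95% interval from -0.52 to 0.24.

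**Figure D1:**
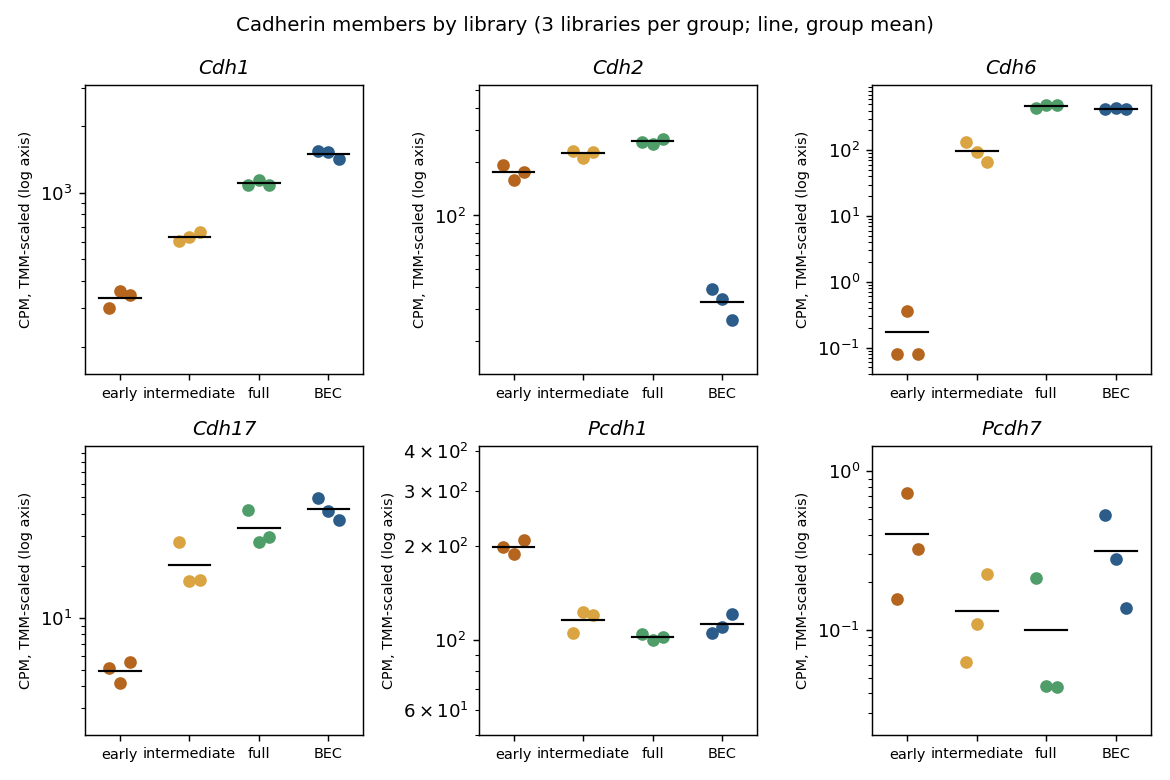
Levels of the 6 members in each of the 12 libraries, in TMM-scaled CPM on a log axis, by group (points, libraries; line, group mean). Cdh6 lies below 0.4 CPM in early and between 417 and 490 CPM in full and BEC, Cdh2 lies below 40 CPM in BEC only, and Pcdh7 stays below 1 CPM in every library.

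Outside early, the intermediate libraries differed most from one another in Cdh6, with a coefficient of variation of 35.3%, against 5.64% in full and 3.20% in BEC. The 3 intermediate values do not overlap with those of any other group. Their mean was 20.5% of the full mean, and the lowest library reached 13.8%. In such bulk libraries fewer cells with a transcript and less of it per cell cannot be told apart. For 3 epithelial genes, chosen after the values were seen, this share was lower. In intermediate, Krt7 stood at 2.0% of its full level, Krt19 at 1.87%, and Grhl2, an epithelial transcription factor, at 0.128%, from 1 count. Epcam, by which these groups were sorted, stood at 7.39%.

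The sequence upstream of Cdh6 is shown because this gene went from a few reads to the levels above. It covers the 250 bases before the start that RefSeq gives on the minus strand of chromosome 15, at chr15:13173676-13173925 of GRCm38.p6, a build other than the GRCm39 named in the submitters' processing notes. Capitals mark a match to ACAAAG, the core recognised by SOX factors.
Cdh6: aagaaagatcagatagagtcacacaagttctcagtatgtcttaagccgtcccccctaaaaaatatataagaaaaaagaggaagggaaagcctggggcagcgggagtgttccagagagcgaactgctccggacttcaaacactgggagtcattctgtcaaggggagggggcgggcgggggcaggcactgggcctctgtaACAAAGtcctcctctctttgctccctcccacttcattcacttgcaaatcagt

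The match begins 52 bases before the start, and 16.5% of 32851 upstream windows of the same length hold ACAAAG on either strand. The motifs were chosen after the sequence was seen. No match was found in this window, on either strand, for GGAATG (TEAD, in 12.6% of windows), TGANTCA (AP-1, 6.75%), CACCTG (the E-box of SNAI and ZEB factors, 17.2%), TGTGGT (RUNX, 14.0%) or the GRHL motif (1.79%). Its GC content is 51.2%, against a median of 52.4% over all windows, and it holds 6 CpG dinucleotides. Among the members, Cdh6 and Pcdh7 had an entry in this table.

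Cdh1 was expressed in every library and stood higher in each successive group. In early libraries it was 300.9, 359 and 345 CPM, and in intermediate 604, 633 and 661 CPM. Full libraries held 1087, 1142 and 1086 CPM, and BEC 1543, 1538 and 1421 CPM. No 2 groups overlap, and the mean of BEC was 4.48-fold that of early. The log2 fold changes of the 3 successive comparisons were 0.92 (SE 0.10), 0.81 (SE 0.10) and 0.44 (SE 0.10). With total counts only the first was 1.58, and BEC against early was 3.03 in place of 2.16, so the size of the differences from early depends on scaling. Cdh1 spread little between replicates, with coefficients of variation between 2.89% and 9.01%.

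Cdh2 was high in the 3 EGFP-positive groups and low in BEC. It was 191, 159 and 176 CPM in early libraries, 230, 210 and 227 CPM in intermediate, and 258, 251 and 268 CPM in full. In BEC it was 38.9, 34.0 and 26.0 CPM. The 3 EGFP-positive groups lie above every BEC library, and full lies highest. BEC was 7.85-fold lower than full on the means (log2 fold change -2.97, SE 0.13) and 5.31-fold lower than early. Among the EGFP-positive groups the differences were small, with log2 fold changes of 0.35 (SE 0.12) for intermediate against early and 0.22 (SE 0.12) for full against intermediate. The first of these was 1.01 with total counts only, and BEC against early was then -1.54 in place of -2.41, so the size of both depends on scaling.

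Cdh2 did not follow the hepatocyte genes. In full cells its mean level was 148% of early, while the 8 hepatocyte markers together were at 3.68% of early and Alb at 3.51%. In BEC, Cdh2 was at 18.8% of early and the hepatocyte markers at 2.26%. These percentages compare levels between separately sorted populations, and their size depends on scaling. With total counts only, the log2 fold change of Cdh2 in full against early was 1.43 in place of 0.56.

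Per kilobase of the longest GENCODE M21 transcript, Cdh1 was the most abundant of Cdh1, Cdh2 and Cdh6 in every library. Of the summed level of the 3, Cdh1 made up 67.5% ± 3.99 in early, 71.2% ± 2.69 in intermediate, 69.1% ± 0.983 in full libraries and 85.1% ± 0.131 in BEC libraries (SD, n = 3). Cdh2 made up 32.4% ± 4.00, 22.9% ± 0.891, 14.8% ± 0.710 and 1.70% ± 0.272 in the same order. Cdh6 made up 0.0189% ± 0.0175, 5.93% ± 2.13, 16.0% ± 0.657 and 13.2% ± 0.372. Full cells were the only group of the 4 in which Cdh2 and Cdh6 were near each other per length, at ratios of Cdh6 to Cdh2 of 1.01, 1.15 and 1.08. In intermediate this ratio was 0.343, 0.260 and 0.171, and in BEC 6.51, 7.74 and 9.50. Which transcripts these cells use was not measured, and the shares move with the length taken.

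**Figure D2:**
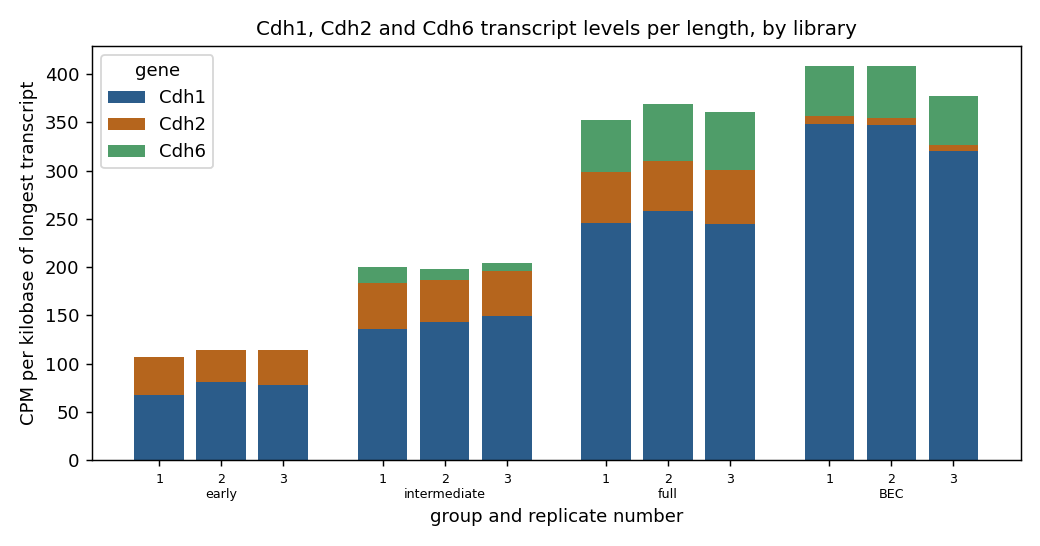
Stacked levels of Cdh1, Cdh2 and Cdh6 in each library, in CPM per kilobase of the longest transcript (bars start at 0; replicate numbers under each bar). The summed level lies between 107 and 114 in early and between 377 and 409 in BEC, with Cdh6 visible from intermediate on and Cdh2 a thin band in BEC.

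Cdh17 was low in every group and higher outside early. It was 5.14, 4.18 and 5.50 CPM in early libraries and 27.6, 16.4 and 16.6 CPM in intermediate. In full it was 42.3, 27.6 and 29.4 CPM, and in BEC 49.9, 41.6 and 36.7 CPM. Early lies apart from the rest. Intermediate replicate 1 at 27.57 CPM nearly meets full replicate 2 at 27.62, and full and BEC overlap. Log2 fold changes were 2.02 (SE 0.25), 0.72 (SE 0.21) and 0.37 (SE 0.21) for the 3 successive comparisons, and the first was 2.69 with total counts only.

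Pcdh1, a protocadherin of epithelial cells, had its highest level in early. It was 198, 188 and 209 CPM in early libraries, 106, 123 and 120 CPM in intermediate, 105, 99.9 and 102 CPM in full, and 106, 110 and 121 CPM in BEC. Early lies above all others, intermediate and BEC overlap, and full lies just under both. The log2 fold change of intermediate against early was -0.77 (SE 0.09), and it rests on the scaling. As shares of total counts the group means were 131 ± 8.48, 122 ± 9.40, 123 ± 1.86 and 135 ± 9.44 CPM without TMM factors (SD, n = 3), and the log2 fold change was then -0.10. The part of scaling in the lower level was not tested beyond this comparison.

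Pcdh7 had between 1 and 11 counts per library, and all its groups overlap. Its counts were 2, 8 and 4 in early, 1, 2 and 4 in intermediate, 5, 1 and 1 in full, and 11, 6 and 3 in BEC. It was not tested, and no direction is drawn from so few reads.

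**Figure D3:**
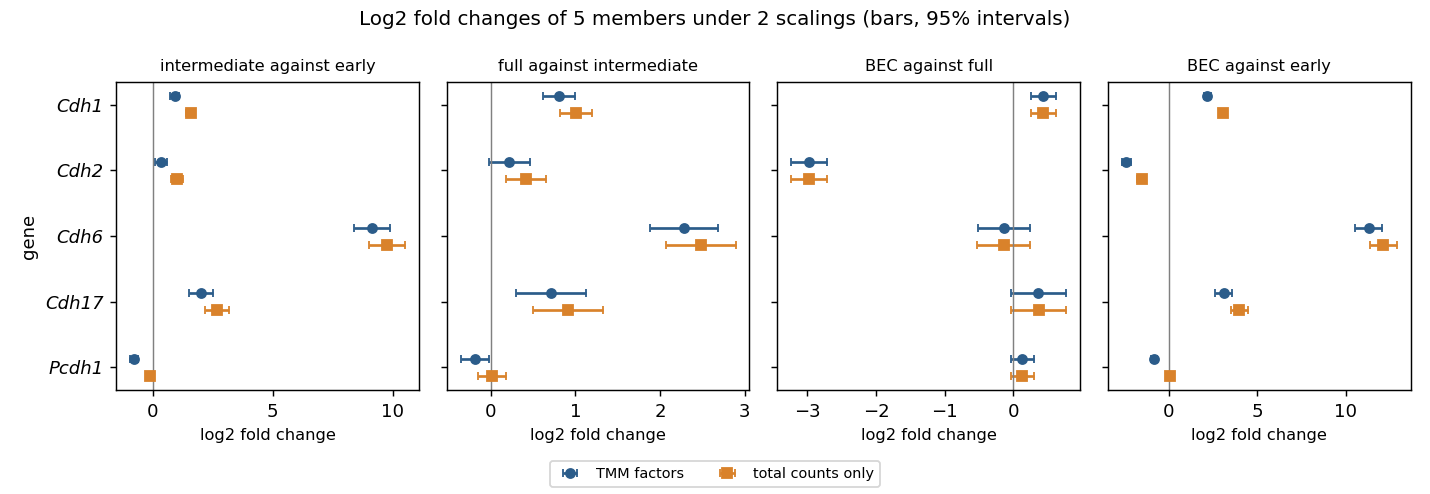
Log2 fold changes of the 5 tested members in 4 comparisons with TMM factors (circles) and with total counts only (squares); bars are 95% intervals, and each panel has its own horizontal scale. Pcdh1 moves from -0.77 to -0.10 between the scalings in intermediate against early, while Cdh2 in BEC against full stays at -2.97 under both.

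Of the 5 tested members, 5 were called between intermediate and early, where 54.4% of all 16210 tested genes were called (edgeR's quasi-likelihood test, adjusted p under 0.05). Between full and intermediate 3 were called against 40.7% of all genes, and between BEC and full 2 against 21.3%. Full against early gave 5 against 71.2%, BEC against early 5 against 73.0%, and BEC against intermediate 4 against 52.5%. Because the members were chosen with these contrasts known, nothing is read from these counts. They also move with the fit. Cdh2 was not called between intermediate and early by DESeq2 (0.29), with RLE factors (0.29), or without early replicate 2 (0.28), early replicate 3 (0.35), intermediate replicate 1 (0.32) or intermediate replicate 3 (0.33). Cdh17 was not called between full and intermediate when full replicate 1 (0.50), intermediate replicate 2 (0.59) or intermediate replicate 3 (0.59) was left out, and was called between BEC and full only with the replicate number as a block (0.39). Cdh2 was called between full and intermediate with total counts only (0.42) and in the fit of 6 libraries (0.22). Pcdh1 was not called with total counts only in intermediate against early (-0.10), full against early (-0.09) or BEC against early (0.05, a reversed direction). It was called between full and intermediate when intermediate replicate 1 was left out (-0.25).

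The genes whose log2 CPM followed Cdh6 most closely over the 12 libraries were Anxa13 (Pearson r 0.999), Arhgef10 (0.998), Nipal2 (0.998), Fbxo10 (0.998) and Cdk19 (0.998). The libraries fall into 4 groups, so these values mostly reflect group means, and none of the 5 was among the first 5 by Spearman's correlation. Anxa13 averaged 0.117 CPM in early, 31.6 in intermediate, 121 in full and 128 in BEC. Likest to Cdh1 were Dpy19l3 (0.999), Ezr (0.996), the actin linker ezrin, and Plagl1 (0.995). For Cdh2 they were Slc25a34 (0.984), Fst (0.982), which encodes follistatin, and Trim2 (0.978). For Cdh17 they were Exoc4 (0.993), Nucb2 (0.993) and Sctr (0.991), the secretin receptor of bile ducts. For Pcdh1 they were Calr (0.990), Tmem141 (0.990) and Hagh (0.989). By Spearman's correlation 1 of the 3 genes was shared for Cdh1 and 0 of 3 for Cdh2, Cdh17 and Pcdh1.

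The rest of the cadherin superfamily was taken from a list of 56 genes set by family membership, without the members and the clustered protocadherins. All 56 were in the table and 29 passed the filter. A gene that passes through 1 high group is bound to differ, so the counts describe the 29 and not the family. Between intermediate and early, 12 of the 29 rose and 3 fell (51.7% called, against 54.4% of all genes; 28.7% of all genes rose). Between full and intermediate 18 rose and 3 fell (72.4%, against 40.7%). Between BEC and full 10 were higher and 9 lower in BEC (65.5%, against 21.3%). The medians of the log2 fold changes were 1.70, 1.41 and 0.50, against 0.06, 0.01 and 0.00 over all genes. With the 4 genes at 0 in early set to their bound, the first median was 1.15.

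Of the 9 relatives that were lower in BEC than in full, 4 are described here with their values, and Cdh9, Pcdh9, Dsc2, Dsg2 and Dsg1c are the others. Pcdh19, a neuronal protocadherin, stood at 0.395, 0.363 and 0.728 CPM in early libraries, 11.7, 15.1 and 18.4 CPM in the intermediate ones, 24.5, 26.4 and 27.3 CPM in full libraries, and 0.577, 0.884 and 0.548 in BEC. It rose at the first comparison (by 4.90 on the log2 scale, SE 0.28, edgeR adjusted p 1.19e-08), but was lower in BEC than in full (-5.27, SE 0.24, edgeR adjusted p 1.31e-08). Pcdh11x, an X-linked protocadherin, had 1 count in all early libraries and 127 in intermediate, a ratio of 88.2 (95% exact interval 15.6 to 3511, counting error only). It was 15.2, 16.4 and 12.1 CPM in full and 0.626, 1.82 and 0.639 CPM in BEC (log2 fold change -3.82, SE 0.49, edgeR adjusted p 7.80e-05). Cdh23, known for the tip links of hair cells, passed the filter through full alone and was 2.42, 0.757 and 0.612 CPM in full, with 1 count in all BEC libraries, a ratio of 82.0 (95% exact interval 14.3 to 3275). In Dsc3, a desmocollin that also passed through full alone, no early library had a count, full libraries held 2.30, 2.41 and 4.50 CPM, at least 11.2-fold above early, and BEC 0.385, 0.233 and 0.320 CPM. The full libraries of each of these 4 genes lie above all BEC libraries.

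A further set was highest in BEC. Cdh3, or P-cadherin, was 29.7, 32.0 and 28.0 CPM in full against 2.45, 0.985 and 0.679 in intermediate (log2 fold change 4.47, SE 0.49, edgeR adjusted p 7.98e-06). It reached 57.8, 63.5 and 73.3 CPM in BEC. Cdh13, the GPI-anchored T-cadherin, was 0.377, 0.219 and 0.283 CPM in intermediate, 5.78, 2.81 and 3.89 in full and 37.0, 29.0 and 35.9 in BEC (BEC against full 3.03, SE 0.26, edgeR adjusted p 1.92e-06). The desmoglein Dsg1b was also higher in BEC than in full, by 2.63 (SE 0.34, edgeR adjusted p 0.000153). Dsg3, which passed the filter through BEC alone, was 0.383, 0.312 and 0.306 CPM in full and 2.07, 2.47 and 2.05 CPM in BEC. Dsg1b and its neighbours Dsg1a and Dsg1c are close copies, and their counts are uncertain. Clstn1, a calsyntenin, rose at each comparison, with means of 2.19 ± 1.01 CPM in early, 58.0 ± 6.89 CPM in intermediate, 168 ± 12.6 CPM in full and 257 ± 2.99 CPM in BEC libraries (SD, n = 3; first log2 fold change 4.73, SE 0.22, edgeR adjusted p 1.84e-09).

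The genes that fell were few. Cdhr5, a brush-border cadherin, fell from 250, 218 and 214 CPM in early to 58.9, 60.0 and 73.9 in intermediate (-1.82 on the log2 scale, SE 0.10, edgeR adjusted p 1.08e-08) and to 23.0, 22.1 and 25.2 in full (-1.45, SE 0.10, edgeR adjusted p 2.48e-07). Pcdh12, an endothelial protocadherin that passed the filter through early alone, was 3.43 ± 0.385 CPM in early and 0.908 ± 0.580 CPM in intermediate (SD, n = 3). Dsg1c fell at the second, from 51.4, 57.9 and 115 CPM to 19.6, 26.2 and 37.9 (-1.43, SE 0.33, edgeR adjusted p 0.00317).

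**Figure D4:**
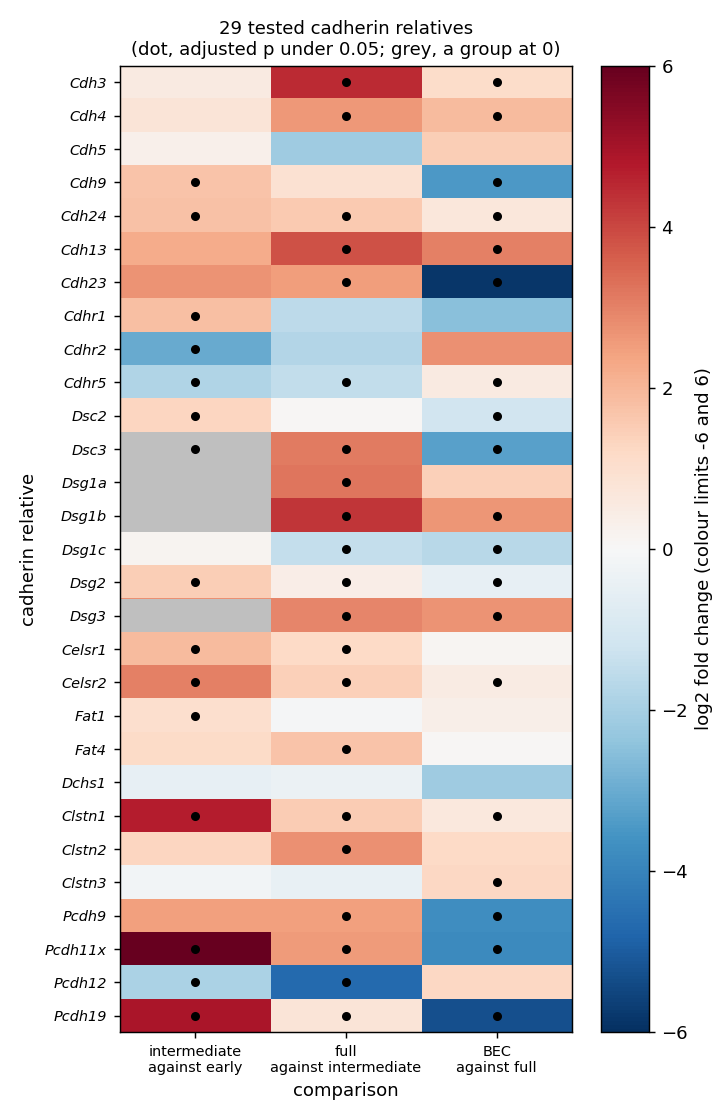
Log2 fold changes of the 29 tested cadherin relatives in the 3 successive comparisons (colour, log2 fold change; dot, adjusted p under 0.05; grey, a group with 0 counts in all its libraries). Pcdh19, Pcdh11x, Dsc3 and Cdh23 turn from higher in full to lower in BEC, while Cdh3, Cdh13, Dsg1b and Dsg3 are higher in BEC.

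Cdh5 and Cdh11 had been listed as checks for other cell types. Cdh5, the endothelial cadherin, lay between 0.128 and 2.08 CPM in the 12 libraries and was not called in the 3 comparisons (full against intermediate -2.14, SE 0.82, edgeR adjusted p 0.0527). With the replicate block it was called there (-2.09, edgeR adjusted p 0.0146), as it was by DESeq2 (-2.11), with no filter (-2.13), in the fit of 6 libraries (-2.14), and without intermediate replicate 1 (-2.58), BEC replicate 1 (-2.14) or BEC replicate 3 (-2.14). Cdh11, a mesenchymal cadherin, stayed under 1 CPM in every library. The 8 endothelial markers summed to between 16.7 and 30.9 CPM in early, 13.8 and 27.3 in intermediate, 8.16 and 11.97 in full, and 5.20 and 12.5 in BEC. These sums were thus lower in full and BEC than in early, as the endothelial Pcdh12 was. Of the 7 endothelial markers tested, 1 was called higher and 5 lower in full than in early (85.7% called, against 71.2% of all genes). In BEC against early 2 were lower and 5 were not called (28.6% called, against 73.0%). The part of endothelial cells in the levels of Pcdh12 and Cdh5 was not tested. Of 10 stellate cell and fibroblast markers, Rgs5 alone held 1588 to 3394 CPM per library outside early, and the other 9 together held 48.6 to 322 CPM, highest in early. The 6 mesothelial markers summed to between 2.45 and 6.99 CPM in early and intermediate, 29.8 and 45.2 in full and 225 and 249 in BEC, with Upk1b at or under 3 counts in each BEC library. Msln made up most of the sum in full and BEC, and the other 5 held 2.92 to 4.91 CPM in early and 35.3 to 54.3 in BEC. Of the 5 mesothelial markers tested, 2 were called higher and 1 lower in BEC than in early (60.0% called, against 73.0% of all genes). Macrophage markers (8 genes) summed to between 60.9 and 227 CPM in the 3 EGFP-positive groups and 488 and 522 in BEC, mostly Cd14 and Csf1r, with Adgre1 under 1 CPM on average in each group. Of the 7 macrophage markers tested, 2 were called higher and 1 lower in BEC than in early, and 4 were not called (42.9% called, against 73.0% of all genes). The 10 lymphocyte and neutrophil markers summed to under 1 CPM in every library. The part of these cells in the higher levels of Cdh3 and Cdh13 in BEC was not tested.

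Of 58 clustered protocadherins, 57 were in the table and 33 passed the filter. Between intermediate and early 25 of the 33 rose and 8 were not called (75.8% called, against 54.4% of all genes), between full and intermediate 28 rose and 5 were not called (84.8%, against 40.7%), and between BEC and full 5 were higher and 4 lower (27.3% called, against 21.3% of all genes). As with the relatives, a gene that passes the filter through only its high group is bound to differ. These counts thus describe the 33 and not the family. Levels of the 33 were low, and 12 of them had no count in early. With those at their bound, the median log2 fold change of the first comparison was 1.60. Some of the clusters share exons, and they hold close copies, so counts for single genes are uncertain.

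Ctnnb1, Ctnnd1, Jup and Ctnna1, the core catenins, were detected in all groups. Ctnnb1, or beta-catenin, was 474, 372 and 424 CPM in early and 758, 775 and 739 in intermediate (0.84 on the log2 scale, SE 0.10, edgeR adjusted p 1.15e-05). It reached 1066, 1035 and 974 CPM in full (0.44, SE 0.10, edgeR adjusted p 0.00367). In BEC it was 1343, 1271 and 1229 CPM, a further 0.32 (SE 0.10, edgeR adjusted p 0.0374). That last call was lost with no filter (0.29, edgeR adjusted p 0.121) and in 8 fits, without intermediate replicates 1 (0.32) or 2 (0.32), full replicates 1 (0.35), 2 (0.33) or 3 (0.29), or BEC replicates 1 (0.29), 2 (0.33) or 3 (0.35). Ctnnd1, or p120-catenin, rose by 1.17 (SE 0.09, edgeR adjusted p 2.19e-07) and 0.53 (SE 0.09, edgeR adjusted p 0.000345) and was not called between BEC and full (-0.09, SE 0.09, edgeR adjusted p 0.564). Jup, or plakoglobin, rose by 0.89 (SE 0.09, edgeR adjusted p 2.35e-06) and by 0.29 (SE 0.09, edgeR adjusted p 0.0204). The second call of Jup was lost with no filter (0.30), without intermediate replicate 2 (0.26) and without full replicate 1 (0.20). Ctnna1, or alpha-E-catenin, rose at the first comparison (0.47, SE 0.09, edgeR adjusted p 0.000446) and was not called at the second (-0.01, SE 0.09, edgeR adjusted p 0.930) or between BEC and full (0.19, SE 0.09, edgeR adjusted p 0.159; DESeq2 adjusted p 0.0318).

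A pair of catenins best known from neurons were near or at 0 in early. Ctnnd2, or delta-catenin, had 1, 4 and 1 counts in early, the same as Cdh6, and was 21.4, 20.7 and 18.1 CPM in intermediate (log2 fold change 6.85, SE 0.31, edgeR adjusted p 1.81e-09). It was 36.9, 43.8 and 40.0 CPM in full and 21.6, 31.4 and 25.9 in BEC. BEC was lower than full (-0.61, SE 0.15, edgeR adjusted p 0.0104), a call lost without full replicate 2 (-0.55, edgeR adjusted p 0.0528). Ctnna2, or alpha-N-catenin, had no count in early, 1.33 ± 0.829 CPM in intermediate, at least 4.87-fold higher, and 11.4 ± 1.93 CPM in full (SD, n = 3; full against intermediate 3.12, SE 0.35, edgeR adjusted p 2.72e-05). It was 12.9, 11.5 and 8.85 CPM in BEC and was not called against full (-0.04, SE 0.29, edgeR adjusted p 0.960). Of 23 listed catenins and junction linkers, 21 were tested. At the first comparison 12 rose and 2 fell (66.7% called, against 54.4% of all genes), at the second 11 rose and 2 fell (61.9%, against 40.7%), and between BEC and full 5 were higher and 4 lower (42.9%, against 21.3%). Median log2 fold changes were 0.47, 0.29 and -0.03, and with the 2 genes at 0 in early at their bound the first was 0.41. The filter limit given for the relatives holds for these counts as well.

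Among the linkers, nectins moved in opposite directions. Nectin2 rose at the first comparison (0.64 on the log2 scale, SE 0.11, edgeR adjusted p 0.000208) and at the second (0.67, SE 0.11, edgeR adjusted p 0.000223). It was not called between BEC and full (-0.14, SE 0.11, edgeR adjusted p 0.447). Nectin1 fell from 194, 188 and 188 CPM in early to 114, 135 and 141 in intermediate (log2 fold change -0.54, SE 0.15, edgeR adjusted p 0.00597), a direction that reversed with total counts only (0.12). It fell further to 64.5 ± 7.63 CPM in full (-1.01, SE 0.15, edgeR adjusted p 9.78e-05) and was 29.6 ± 6.77 CPM in BEC (SD, n = 3; -1.13, SE 0.15, edgeR adjusted p 0.0001). Nectin3 fell at the second comparison (-0.72, SE 0.16, edgeR adjusted p 0.00205) and was lower in BEC than in full (-1.09, SE 0.16, edgeR adjusted p 0.000221). Nectin4 had no count in early and 6 in intermediate, and was 3.73 ± 1.57 CPM in full and 30.9 ± 1.90 CPM in BEC (SD, n = 3; BEC against full 3.04, SE 0.30, edgeR adjusted p 2.05e-05). The desmosomal plaque genes Pkp1 and Pkp3 were higher in BEC than in full, by 2.92 (SE 0.46, edgeR adjusted p 0.000358) and 1.97 (SE 0.15, edgeR adjusted p 8.78e-07). At the second comparison Pkp3 had risen by 2.25 (SE 0.18, edgeR adjusted p 4.71e-07).

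Of 11 genes known to regulate Cdh1, 8 were tested, and Snai1, Twist1 and Twist2 did not pass the filter. Zeb2, a repressor of Cdh1, went from 0.553, 1.27 and 2.02 CPM in early to 11.1, 9.74 and 8.20 in intermediate (log2 fold change 2.91, SE 0.32, edgeR adjusted p 4.09e-06). It was 29.8, 30.6 and 27.8 CPM in full and 2.60, 4.19 and 2.42 in BEC (-3.26, SE 0.26, edgeR adjusted p 1.23e-06). Zeb2 and Cdh1 were thus both higher in full than in early. Zeb1, a related repressor, rose at the first comparison (0.65, SE 0.12, edgeR adjusted p 0.000303), was not called between full and early (0.18, edgeR adjusted p 0.183), and was lower in BEC than in full (-1.78, SE 0.12, edgeR adjusted p 2.96e-07). At the second comparison it fell by 0.47 on the log2 scale (SE 0.11, edgeR adjusted p 0.00422), a call lost with total counts only (-0.27). Snai2, also a repressor, fell from 10.7 ± 0.973 CPM in early to 3.11 ± 0.104 in intermediate (SD, n = 3; -1.78, SE 0.33, edgeR adjusted p 0.000405) and to 0.841 ± 0.236 in full (-1.88, SE 0.37, edgeR adjusted p 0.00108).

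Grhl2, a factor known to promote the epithelial state, had no count in early and 1 in intermediate, and was 16.3, 20.5 and 12.1 CPM in full and 71.9, 65.1 and 69.01 CPM in BEC (BEC against full 2.07, SE 0.18, edgeR adjusted p 8.42e-06). Ovol2, an epithelial zinc finger factor, was 2.98 ± 0.869 CPM in full and 6.79 ± 0.406 CPM in BEC (SD, n = 3; 1.19, SE 0.25, edgeR adjusted p 0.00527). Its relative Ovol1, which passed the filter through BEC alone, was 0.170, 0.445 and 0.0437 CPM in full and 1.44, 1.86 and 1.05 CPM in BEC. Klf4 (1.09, SE 0.30, edgeR adjusted p 0.00668) and Tcf3 (0.93, SE 0.09, edgeR adjusted p 1.42e-06) rose at the first comparison. Klf4 was not called between full and intermediate (-0.18, SE 0.27, edgeR adjusted p 0.641). In all, 5 of the 8 rose and 1 fell at the first comparison (75.0% called, against 54.4% of all genes), 4 rose and 2 fell at the second (75.0%, against 40.7%), and 4 were higher and 3 lower in BEC than in full (87.5%, against 21.3%). Median log2 fold changes were 1.51, 0.58 and 0.39, and with the 3 genes at 0 in early at their bound the first was 0.41. A gene that passes the filter through 1 high group, such as Ovol1, is bound to differ, so these counts describe the 8 only.

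The 10 listed genes of cadherin cleavage and turnover were all tested. At the first comparison 3 rose and 4 fell (70.0% called, against 54.4% of all genes), at the second 2 rose and 3 fell (against 40.7%), and between BEC and full 2 were higher and 8 were not called (against 21.3%). Adam10, a protease that sheds Cdh1 and Cdh2, had a mean of 76.8 CPM in early, 143 in intermediate, 160 in full and 165 in BEC. Among the genes that fell, Psen2 averaged 303 CPM in early, 81.3 in intermediate, 33.6 in full and 33.4 in BEC. Furin averaged 539, 280, 224 and 225 CPM in the same order. Median log2 fold changes were -0.02, 0.06 and 0.09.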

How the data were processed

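RNA was isolated with a NucleoSpin kit and libraries were made by a service provider, per the labels' protocols. The submitters' processing notes name GRCm39, STAR 2.7.10b, featureCounts 2.0.1 and DESeq2. Annotation, strand setting and treatment of reads that match several genes are not given in the sources used here. The authors deposited raw counts per gene symbol, used for all tests, and a signal table in which each library's counts are divided by a size factor (0.623 to 1.33), used only as a check.

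Genes were kept by filterByExpr (16210 of 53599) and scaled by TMM. All 12 libraries were fitted together, with the group as the only term (R 4.3.3, edgeR 4.0.16, limma 3.58.1, Python 3.11.15, matplotlib 3.10.9), tested by edgeR's quasi-likelihood test and with Benjamini-Hochberg adjustment over all tested genes and a threshold of 0.05. Log2 CPM used a prior count of 2. The common biological coefficient of variation was 14.8%. Exact intervals of pooled counts and bounds (3 counts per library, 0.128 to 0.273 CPM) cover counting error only, since PCR copies are not independent molecules. Intervals of log2 fold changes come from the fitted SE and hold the spread between libraries. Within groups, libraries differed by more than counting error (chi-square per degree of freedom 4.95 to 52.1). The fit was tested on simulated data in which few genes changed, equally in both directions. That test does not cover a composition difference such as that of the early libraries.

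Members and lists were chosen with earlier results of these data known. Beyond the members, genes were named by a rule: in 3 lists, up to 3 called genes per direction and successive comparison, by size of log2 fold change, whose libraries do not overlap and whose higher group averages 1 CPM or more. Core catenins, Cdh5, Cdh11 and Pcdh19 were always named, as were the 5 genes likest to Cdh6 and the 3 likest to each other tested member. Epcam, Krt7, Krt19, Alb, Adam10, Psen2, Furin, Nectin2 and the marker genes named singly lie outside this rule and were chosen after their values were seen. Alternatives covered DESeq2 1.42.0, RLE factors, total counts only, 2 filters, a replicate block, fits of 6 libraries and fits without each library. Same-numbered libraries deviated together in the 3 successive comparisons (r from 0.121 to 0.322 across genes) and also in the others (0.0442 to 0.209). The numbers in the titles may thus pair them, but what they mark is not given. Reported SEs, intervals and adjusted p values come from the fit without a term for such pairs.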

Additional observations from a re-analysis of the deposited data

How the results depend on the processing

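Of 513 counts of called genes recomputed under an alternative, 499 stayed within 1.5 times the reported count. With a mean of at least 50 counts, fewer cadherin relatives were tested, with 11 called in full against intermediate (21 reported), 12 in BEC against full (19), 14 in full against early (26), 12 in BEC against early (21) and 11 in BEC against intermediate (21). Of the cleavage genes, 2 were called between BEC and full, 0 with no filter beyond 1 count, 1 in the fit of 6 libraries and 0 to 2 when a library was left out (0 without full replicate 2, and 1 without full replicates 1 or 3 or BEC replicates 1 or 3). Of the Cdh1 regulators 4 to 7 were called there, 4 without full replicate 1 or BEC replicate 2. Members called ran from 4 to 5 between intermediate and early and from 2 to 4 between full and intermediate when a library was left out.

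Directions reversed for Pcdh1 with total counts only (full against intermediate 0.0158, BEC against early 0.0465, BEC against intermediate 0.15) and with RLE factors (BEC against intermediate 2.9e-05), and for Nectin1 with total counts only (intermediate against early 0.12). Ctnna1, full against intermediate, reversed with DESeq2 (0.0274), total counts only (0.19), RLE factors (0.0274) and a mean of at least 50 counts (0.0132), and ran from -0.0363 to 0.00701 when a library was left out, above 0 without full replicate 2. Jup, BEC against full, ran from -0.00670 to 0.136, below 0 when full replicate 3 was left out. Cdh5 ran from -0.0702 to 0.741 in intermediate against early, below 0 without intermediate replicate 2, and from -0.0644 to 1.95 in BEC against full, below 0 without BEC replicate 3. Scaling apart, the cause was not tested. With total counts only, the share of all calls that were higher was 72.5% in full against intermediate (51.2% with TMM), 81.8% in full against early (54.9%), 80.2% in BEC against early (54.8%) and 66.5% in BEC against intermediate (50.1%).

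With the replicate number as a block, 9276, 7300 and 4096 genes were called in the 3 successive comparisons, against 8817, 6590 and 3445 without it. The block added the calls of Cdh17 between BEC and full and of Cdh5 between full and intermediate, and changed no other call of a named gene. With the median transcript length in place of the longest, the Cdh6 share was 18.7% in full and 15.3% in BEC, the Cdh2 share 21.3% in intermediate and 13.5% in full, and the Cdh1 share 67.9% in full and 83.2% in BEC. Depth limits Pcdh7 and the early level of Cdh6, which rest on at most 11 and 4 counts per library.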

Other observations

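Dsg1c, a desmoglein, stood in the same order of replicate numbers in 3 of the 4 groups: 44.3, 63.3 and 95.6 CPM in early, 51.4, 57.9 and 115 CPM in intermediate, and 19.6, 26.2 and 37.9 CPM in full, for replicates 1, 2 and 3. In BEC it was 9.05, 7.77 and 9.40 CPM. Cdh17 was highest in replicate 1 in intermediate, full and BEC, at 27.6, 42.3 and 49.9 CPM. What the replicate numbers mark is not given in the sources used here.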
